A study of Mus musculus with 12 samples.

Results

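The glutathione, thioredoxin and antioxidant enzyme families were followed in neurons of the mouse entorhinal cortex. A gene was counted as a member when its name on the array began with Gpx, Prdx, Srxn, Txn, Glrx, Mgst, Hmox, Nqo, Gclc or Gclm, with Gst and a class letter from a, k, m, o, p, t or z, or with Sod and a digit from 1 to 3, or when it was Cat or Gsr. The rule took 125 of 41174 probes, which stand for 76 of 27573 genes, and it used no measured value. Of these, 45 genes with 57 probes passed the filter on dim probes and could be tested, among 10898 tested genes in all.

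Neurons had been captured by laser from stained sections 12 µm thick, 500 per region. The first region was the medial part of the entorhinal cortex (MEC) and the other its lateral part (LEC). The mutants were Naglu-/- female mice, 2 months old, on a C57BL/6 background; they lack a lysosomal enzyme of heparan sulfate breakdown and model Sanfilippo syndrome type B. The controls were Naglu+/- female littermates of the same age and background, so every mouse carried at least 1 disrupted allele, and no wild-type mouse was included. Each region had 3 littermate pairs, and each pair was hybridised on 2 dual-dye Agilent arrays with the dyes swapped, after linear amplification of the RNA.

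Cells remove superoxide, hydrogen peroxide and lipid peroxides in steps. Superoxide dismutases turn superoxide into hydrogen peroxide, which catalase, peroxiredoxins and glutathione peroxidases then reduce. Peroxiredoxins are recharged by thioredoxin, which thioredoxin reductase keeps reduced with NADPH, while glutathione peroxidases, glutaredoxins and glutathione transferases draw on glutathione, made by the Gclc and Gclm subunits of glutamate-cysteine ligase and kept reduced by glutathione reductase, Gsr. Many of these genes answer to the transcription factor Nrf2, which binds the antioxidant response element. The thioredoxin names on the array also cover proteins with a thioredoxin fold that act in the endoplasmic reticulum or elsewhere and are no peroxide scavengers.

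Cy3 was the brighter dye. Its median spot intensity ranged between 66.5 and 91.8 over the 12 arrays, and between 46.3% and 65.6% of its spots passed the scanner software's call of well above background. For Cy5 the medians ranged between 44.1 and 54.3, and the passing spots between 14.1% and 28.8%. Naglu itself could not check the genotypes: its brighter probe passed that call in all 12 Cy3 readings but in 0 of 12 for Cy5, both its probes failed the filter, and the log2 ratio averaged 0.03 for MEC and 0.01 for LEC. Between the authors' value table and the labels there were 2 conflicts. By the table, 5 LEC files lay under another LEC sample's name, and in replicate 2 of both regions (4 arrays) its sign opposed the labelled dyes. The table was followed, but which way replicate 2 runs remains unsettled. Turned as labelled, replicate 2 exchanges the mutant and control values of pairs MEC 2 and LEC 2, so every ratio of these pairs changes sign. Turned averages and counts are given beside some of the results, and genotype values without them follow the table. Of the neuronal markers, 5 of 10 excitatory ones passed the filter, with Camk2a, Nrgn and Reln well above background in all 24 dye readings and Slc17a7 in no Cy5 reading, and 8 of 10 inhibitory ones, Gad1, Slc32a1 and Sst among them in all 24. Astrocyte markers (12 of 15, without Gfap and Aqp4) and microglial ones (15 of 18) passed as well. In such bulk captures, fewer cells of a type and less RNA per cell cannot be told apart.

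Transcripts of most enzyme classes could be measured. Among the 76 genes, 33 were well above background in all 24 dye readings (12 arrays with 2 dyes) and 2 in none, Gpx3, the secreted glutathione peroxidase, and the alpha class transferase Gsta2. Thioredoxins and their relatives had 16 of 24 genes tested, glutathione transferases 10 of 22, peroxiredoxins with sulfiredoxin 7 of 9 and glutathione peroxidases 2 of 7. The superoxide dismutases with catalase had 3 of 4, haem oxygenases with quinone oxidoreductases 3 of 4, glutaredoxins 2 of 3 and the group of Gclc, Gclm and Gsr 2 of 3. The untested genes included Prdx1, Gclm, Nqo1, Sod3, Txnip (the thioredoxin inhibitor) and every alpha and theta class transferase on the array. The dyes differed in what they could see: 30 of the 31 untested genes had no Cy5 reading well above background, and 5 of them (Gpx2, Gpx7, Mgst2, Txndc2 and Txnip) were well above background in all 12 Cy3 readings. No member reading was saturated.

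The first question was whether antioxidant transcripts differ in neurons that lack Naglu. None of the 45 tested genes passed an adjusted p of 0.05 (limma, Benjamini-Hochberg over all genes) in MEC, in LEC, in the average over both regions or in the difference between the regions, against 0% of the 10898 genes in each of these comparisons. At an unadjusted p under 0.05 there were 2 members of 45 in the average, against 243 of all 10898 genes. In LEC there was 1 member, against 170 of all genes, and in the difference 0, against 59. In MEC there was 1 member as well, and fewer of all genes were under 0.05 there than in LEC. With replicate 2 turned as labelled these counts were 3 of 45 in the average, against 1290 of all genes. In MEC they were 3 against 1202, in LEC 7 against 1077 and in the difference 7 against 970. Still 0 genes had an adjusted p under 0.05. The median log2 ratio of mutant over control was −0.02 over the 45 members and 0.0006 over all genes. Of the members 28 were under 0 and 17 above, against 5394 and 5504 of all genes. Turned, the members' median was 0.0090, against 0.017 over all genes, with 22 members under 0 and 23 above. In MEC 20 members were then under 0 and 25 above. In the direction followed, MEC had 32 members under 0 and 13 above, against 5756 and 5142 of all genes. The members' averages ran from −0.19 to 0.06 (turned, from −0.25 to 0.19), and the median standard error (SE) of these averages was 0.07.

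**Figure D1:**
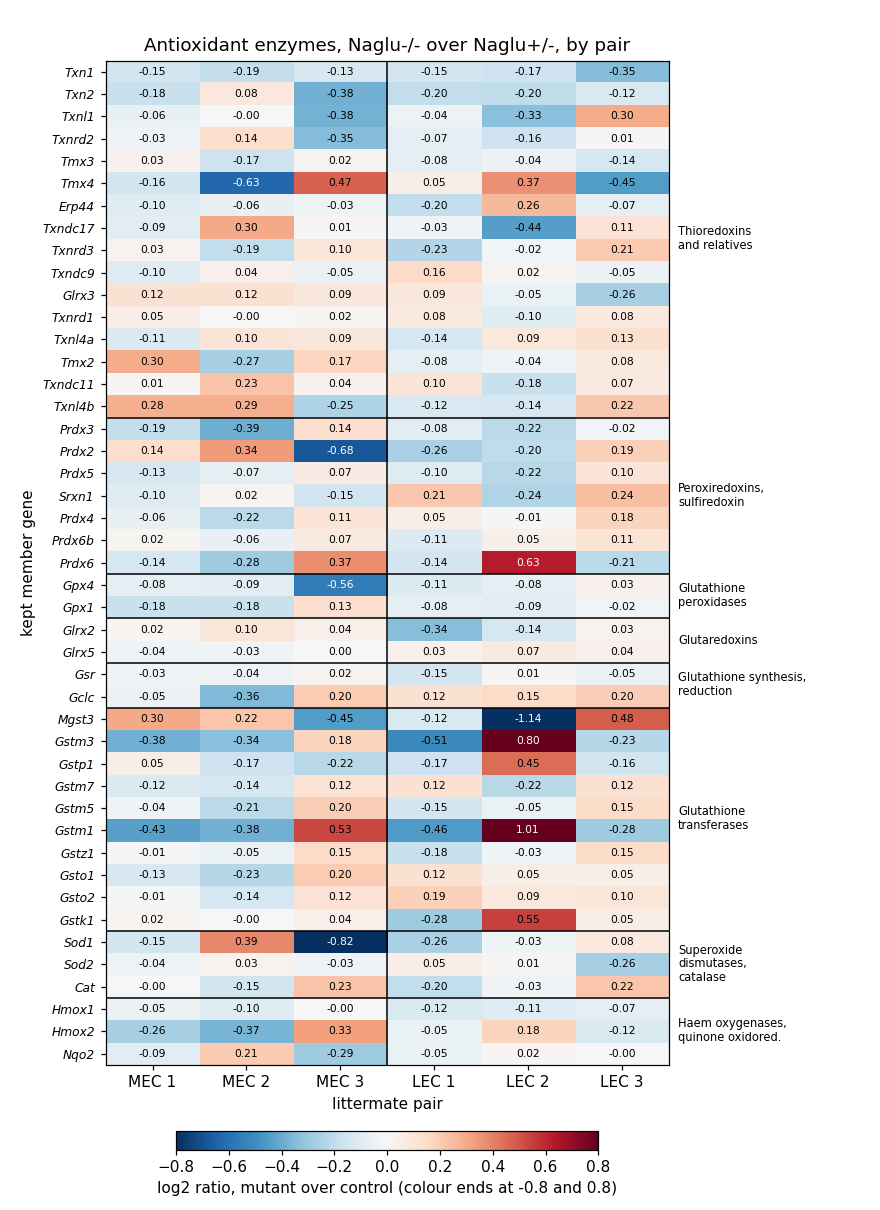
Log2 ratio of Naglu-/- over Naglu+/- for each of the 45 tested members (rows, by family) in each littermate pair (columns), where blue is lower and red higher in the mutant. Txn1 reads from −0.13 to −0.35 in the 6 pairs. Sod1 is furthest from 0 in MEC 3 (−0.82) and Gstm1 in LEC 2 (1.01, from 1 array). The signs of MEC 2 and LEC 2 are not settled.

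Txn1, the cytosolic thioredoxin, had the smallest unadjusted p of all members. Its log2 intensity in MEC was 8.66, 8.53 and 8.78 in mutants, against 8.81, 8.72 and 8.91 in their control littermates. In LEC it was 8.42, 8.12 and 8.03 in mutants, against 8.57, 8.28 and 8.38 in controls. Within each pair the mutant was the lower, although the ranges of mutants and controls overlapped in both regions. By pair the log2 ratio came to −0.15, −0.19 and −0.13 for MEC and to −0.15, −0.17 and −0.35 for LEC, an average of −0.19 (SE 0.05, n = 6 pairs, 95% interval −0.30 to −0.08; 0.878-fold), with an adjusted p of 1.00 in limma's fit. It failed the correction, and the sign of its average was under 0 in every alternative run, at −0.07 with replicate 2 turned as labelled, −0.19 without replicate 2 and −0.06 without loess, where its MEC value turned to 0.03. Its probe lies at chr4:58037859-58037918 (build mm8).

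Txn2, the mitochondrial thioredoxin, came next. Its log2 intensity in MEC was 8.07, 8.32 and 8.12 in mutants, against 8.25, 8.24 and 8.503 in controls. In LEC it was 8.70, 8.54 and 8.46 in mutants, against 8.90, 8.74 and 8.58 in controls. The mutant was the lower in every pair but MEC 2, and the groups overlapped in both regions. By pair the ratio came to −0.18, 0.08 and −0.38 for MEC and to −0.20, −0.20 and −0.12 for LEC, an average of −0.17 (SE 0.06, 95% interval −0.32 to −0.01, adjusted p of 1.00 in limma). A second kept probe of the gene gave −0.10, −0.15, −0.10, −0.03, −0.09 and −0.16 in the same order of pairs, so the sign was under 0 in all 6 there and in 5 of 6 at the probe used; turned, these counts were 4 and 5. Without replicate 3 of MEC the average of the probe used was −0.11, and with replicate 2 turned as labelled it was −0.13.

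A ratio under 0 in all 6 pairs was met by 2 of the 45 members (4.44%), against 0.716% of all tested genes, and a ratio above 0 in all 6 by none, against 1.15%. Besides Txn1 the gene was Hmox1, the inducible haem oxygenase. In LEC its log2 intensity was 6.27, 6.29 and 6.30 in mutants, against 6.39, 6.40 and 6.37 in controls, with no overlap. In MEC it was 6.28, 6.16 and 6.24 in mutants, against 6.32, 6.26 and 6.24 in controls, with overlap. By pair it read −0.05, −0.10 and −0.0029 for MEC and −0.12, −0.11 and −0.07 for LEC. Its average was −0.08 (SE 0.04, interval −0.17 to 0.02) and did not pass the test. The separation in LEC rests on the unsettled direction of replicate 2. Turned, LEC 2 was at 0.11, mutants and controls overlapped in LEC, and the average of Hmox1 was −0.0077. With replicate 2 turned as labelled, neither gene had the same sign in all pairs; Nqo2 was then under 0 in all 6 and Txnrd1 above 0 in all 6, against 4.27% and 3.4% of all tested genes.

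**Figure D2:**
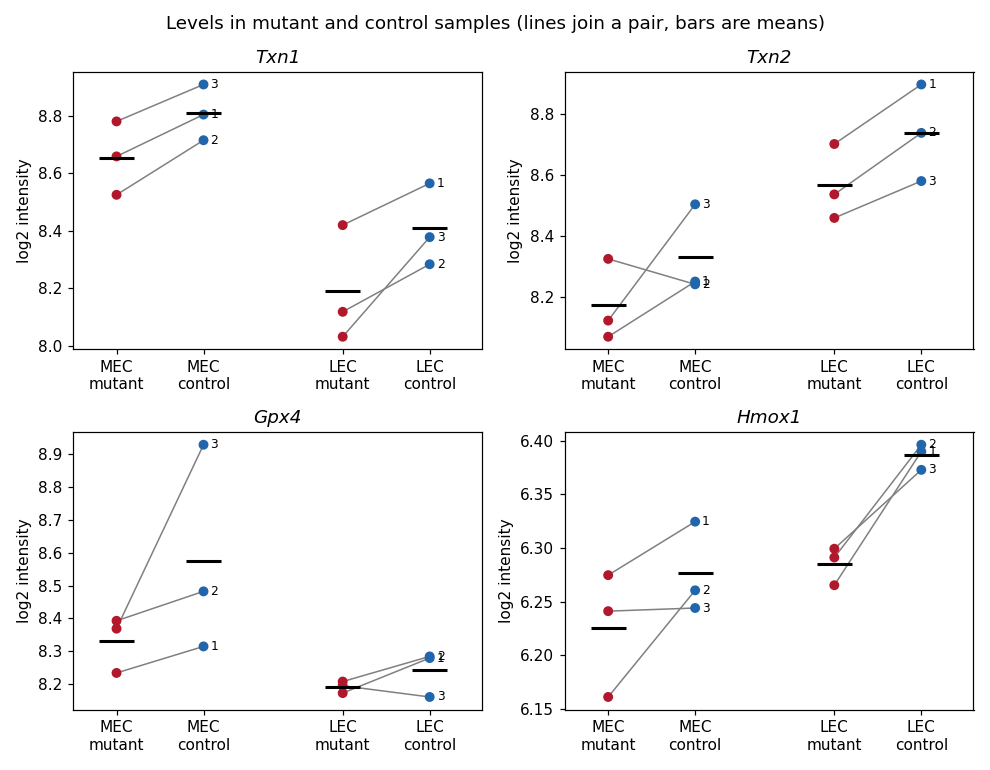
Log2 intensity of Txn1, Txn2, Gpx4 and Hmox1 in mutant (red) and control (blue) samples of each region, with a line for each littermate pair, its number beside the control and a bar at the mean of 3. All 6 Txn1 and Hmox1 lines are lower at the mutant end, where turning pair 2 as labelled would exchange its ends, and the Gpx4 difference in MEC is widest in pair 3.

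The 2 thioredoxins are shown with the promoter windows of their genes, since both read lower in mutants in most pairs. After quantile normalisation between arrays they also differed opposite ways between the regions. With each array scaled to its 75th percentile both were under 0, MEC over LEC (−0.03 and −0.86). The windows run from 250 bases before to 50 bases after the annotated gene start, 5′ to 3′ on the gene's strand, from RefSeq, build GRCm38.p6; capitals mark GC boxes, the letters GGGCGG on either strand, which Sp1 family factors bind.
Txn1 promoter, chr4:57956362-57956661, minus strand: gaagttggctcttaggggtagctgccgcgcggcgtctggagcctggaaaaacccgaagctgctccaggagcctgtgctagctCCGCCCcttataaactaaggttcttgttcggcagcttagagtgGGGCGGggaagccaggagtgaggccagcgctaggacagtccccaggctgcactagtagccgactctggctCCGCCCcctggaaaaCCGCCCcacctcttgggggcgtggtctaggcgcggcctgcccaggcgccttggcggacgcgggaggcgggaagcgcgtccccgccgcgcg
Txn2 promoter, chr15:77928945-77929244, minus strand: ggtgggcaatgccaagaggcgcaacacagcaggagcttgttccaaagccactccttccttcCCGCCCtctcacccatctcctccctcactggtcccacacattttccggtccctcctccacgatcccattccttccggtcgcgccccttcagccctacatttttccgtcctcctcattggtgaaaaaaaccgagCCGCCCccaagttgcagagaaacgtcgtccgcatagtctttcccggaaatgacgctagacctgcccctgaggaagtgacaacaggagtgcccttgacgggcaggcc
The Txn1 window holds 4 GC boxes and the Txn2 window 2. A window was at hand for 64 of the 76 members and for 37 of the 45 tested ones, and a GC box stood in at least 1 window of 42 of the 64 (65.6%) and 31 of the 37 (83.8%), against 38.2% of 27025 genes with a window. The 27025 genes were not limited to those that passed the filter, so they are no like set for the 37. The share over all tested genes was not computed.

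Among the other thioredoxin genes, the averages lay between −0.09 for Txnl1, a proteasome-associated thioredoxin-like protein, and 0.05 for Txnl4b, a relative of a spliceosome protein. The thioredoxin reductases Txnrd1 (cytosolic), Txnrd2 (mitochondrial) and Txnrd3 averaged 0.02, −0.08 and −0.02. Glrx3, a glutaredoxin of iron-sulfur metabolism that the array lists as Txnl2, read 0.12, 0.12 and 0.09 in the MEC pairs and 0.09, −0.05 and −0.26 in the LEC pairs; its MEC minus LEC difference of 0.19 (SE 0.11) had an interval of −0.08 to 0.45. Tmx4, a membrane protein with a thioredoxin domain, had the widest swings, from −0.63 in MEC 2 to 0.47 in MEC 3, and its second probe did not follow them, at −0.05 and −0.01.

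Of the peroxiredoxins, Prdx3, the mitochondrial peroxidase that Txn2 recharges, read −0.19, −0.39 and 0.14 in MEC and −0.08, −0.22 and −0.02 in LEC, an average of −0.13 (SE 0.07, interval −0.30 to 0.05), which turned to 0.08 with replicate 2 turned as labelled. Prdx2, a cytosolic peroxiredoxin abundant in neurons, ranged from −0.68 in MEC 3 to 0.34 in MEC 2 and averaged −0.08 (turned, −0.12). Its second kept probe ranged only from −0.08 to 0.08. Srxn1, sulfiredoxin, which repairs overoxidised peroxiredoxins, averaged −0.00 (SE 0.07), with 3 pairs on either side of 0. Turned, its 3 LEC pairs were at 0.21 to 0.24 and its 3 MEC pairs at −0.15 to −0.02, an average of 0.07.

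The glutathione peroxidases were represented by Gpx4, which reduces lipid peroxides in membranes, and Gpx1, the cytosolic enzyme. Gpx4 had log2 intensities of 8.23, 8.39 and 8.37 in MEC mutants, against 8.31, 8.48 and 8.93 in MEC controls. In LEC the intensities were 8.17, 8.21 and 8.19 in mutants, against 8.28, 8.28 and 8.16 in controls. Most of its MEC ratio of −0.24 (SE 0.10, interval −0.49 to 0.0024) came from pair 3, at −0.56, with −0.08 and −0.09 in the others. The average over both regions was −0.15 with all pairs, −0.07 without MEC 3 and −0.09 with replicate 2 turned as labelled. Gpx1 read −0.18, −0.18 and 0.13 in MEC and −0.08, −0.09 and −0.02 in LEC. Its turned average was 0.02.

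For glutathione itself, Gclc, the catalytic subunit of its rate-limiting ligase, read −0.05, −0.36 and 0.20 for MEC and 0.12, 0.15 and 0.20 for LEC. The 3 LEC pairs were above 0, with a mean of 0.16 (SE 0.10, interval −0.09 to 0.40), and MEC stood at −0.07 with pairs on both sides. Turned, LEC 2 was −0.15 and the means were 0.06 in LEC and 0.17 in MEC. The difference of −0.22 had an interval of −0.57 to 0.12 and was not called (turned, 0.11). Gsr averaged −0.04 (SE 0.04), with an interval of −0.14 to 0.06. The glutaredoxins were as close to 0: Glrx5, needed for mitochondrial iron-sulfur clusters, averaged 0.01 (interval −0.08 to 0.11) and Glrx2, the mitochondrial and nuclear enzyme, −0.05, where its LEC mean of −0.15 was met by a second probe above 0 in all 3 LEC pairs.

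Catalase, Cat, averaged 0.01 and Sod2, the mitochondrial dismutase, −0.04, with an interval of −0.17 to 0.09. Sod1, the cytosolic dismutase, read −0.15, 0.39 and −0.82 in MEC and −0.26, −0.03 and 0.08 in LEC. In MEC its intensities were 11.64, 11.91 and 11.41 in mutants and 11.79, 11.52 and 12.23 in controls, so mutants were the lower in pairs 1 and 3 and the higher in pair 2. Its average of −0.13 (SE 0.14) became 0.02 without MEC 3 and −0.25 with replicate 2 turned as labelled. Hmox2, the constitutive haem oxygenase, averaged −0.05 and Nqo2, a quinone reductase, −0.03.

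Some transferases varied widely between pairs. Gstm1, a mu class enzyme found in astrocytes, had log2 intensities of 8.90, 9.05 and 9.33 in MEC mutants, against 9.33, 9.43 and 8.80 in MEC controls, and of 9.10, 10.13 and 8.68 in LEC mutants, against 9.55, 9.12 and 8.96 in LEC controls. By pair its ratio was −0.43, −0.38 and 0.53 for MEC and −0.46, 1.01 and −0.28 for LEC, an average of −0.00 (SE 0.22). The value of LEC 2 came from 1 array, since its dye swap carried an outlier flag. The mutant was the higher in 2 of the 6 pairs, MEC 3 and LEC 2; turned, these were MEC 2 and MEC 3, and the average was −0.21. Gstm3 ran with it (−0.38, −0.34, 0.18, −0.51, 0.80 and −0.23), but mu class genes are close copies of each other and these probes may not tell them apart. Gstp1, the pi class enzyme, read 0.45 in LEC 2 and −0.22 to 0.05 in the other pairs, with a second probe at 0.01 in LEC 2.

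**Figure D3:**
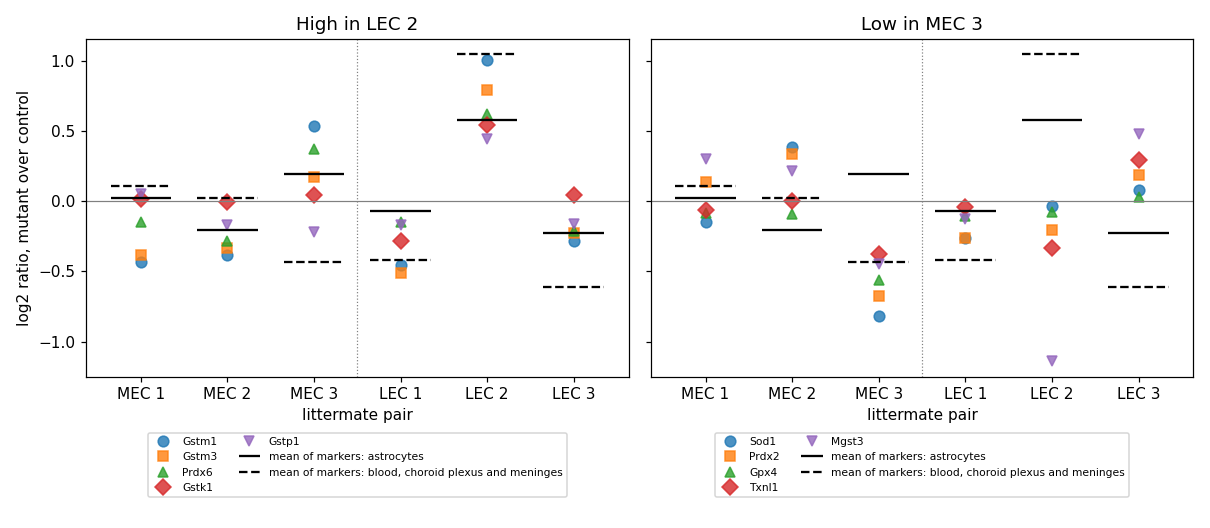
Log2 ratio of mutant over control by littermate pair for members high in LEC 2 (left) or low in MEC 3 (right), chosen after their values were seen, with the mean ratio of the astrocyte markers (solid lines) and of the markers of blood, choroid plexus and meninges (dashed lines). Gstm1 in LEC 2 (1 array) is at 1.01 where the astrocyte mean is 0.58, both of the opposite sign if replicate 2 is turned as labelled. In MEC 3, Sod1 is at −0.82 where the astrocyte mean is 0.19. Other marker lists are not drawn, among them that of inhibitory neurons, at 0.43 in LEC 2.

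In pair LEC 2, Gstm1 (1.01), Gstm3 (0.80), Prdx6 (0.63), Gstk1 (0.55) and Gstp1 (0.45) were high and Mgst3 was low at −1.14, all singled out after their values were seen. Prdx6 is the peroxiredoxin that works with glutathione, Gstk1 the transferase of mitochondria and peroxisomes, and Mgst3 a membrane transferase. The second probe of Mgst3 read −0.43 there. Mean ratios of some marker lists moved as well. The 12 astrocyte markers averaged 0.58 in LEC 2, against −0.23 to 0.19 in the other pairs. The 7 markers of blood, choroid plexus and meninges averaged 1.05, against −0.61 to 0.11. A neuronal list moved too: the 8 inhibitory markers averaged 0.43, against −0.18 to 0.11. Lists of oligodendrocytes, excitatory neurons and vessels averaged 0.18, 0.08 and 0.0055 in LEC 2. Turned as labelled, LEC 2 has the high members at −1.01, −0.80, −0.63, −0.55 and −0.45 and Mgst3 at 1.14. The astrocyte, blood and inhibitory lists are then at −0.58, −1.05 and −0.43. In pair MEC 3, Sod1, Prdx2, Gpx4, Mgst3, Txnl1 and Txn2 read −0.82, −0.68, −0.56, −0.45, −0.38 and −0.38. There the astrocyte, blood and inhibitory lists averaged 0.19, −0.43 and −0.0017. The part of other cells in these ratios was not tested. Microglial markers averaged 0.25 in MEC 1, 0.23 in MEC 3, 0.17 in LEC 1 and 0.19 in LEC 3; in MEC 2 and LEC 2 they averaged 0.22 and 0.44, or −0.22 and −0.44 if turned.

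The 2 arrays of a pair, with dyes swapped, gave ratios of the same sign for 21 of 44 members in MEC 1, for 27 and 29 of 45 in MEC 2 and MEC 3, for 29 of 45 in LEC 1, 25 of 44 in LEC 2 and 26 of 45 in LEC 3. Prdx3 in MEC 1 and Gstm1 in LEC 2 had 1 array. Across members, the correlation of the duplicates was −0.04 in MEC 1 and 0.45, 0.65, 0.20, 0.44 and 0.12 in the other pairs, in the same order. Across all tested genes it was −0.24 in MEC 1, 0.31 in MEC 2 and 0.47 in MEC 3. In LEC 1, LEC 2 and LEC 3 it was 0.34, 0.06 and 0.07. Members are not independent replicates. The number of arrays and the low agreement of duplicates limit the precision.

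The second question was how the antioxidant transcripts are set in the neighbouring regions, using the mean of both dyes and so both genotypes equally. After quantile normalisation between arrays, 17 of the 45 members (37.8%) differed between MEC and LEC at an adjusted p under 0.05 in limma, against 25.7% of all tested genes. Of these, 15 (33.3%) were higher in MEC, against 11.6% of all genes, and 2 (4.44%) lower, against 14.1%. The median log2 difference, MEC over LEC, was 0.10 over the members and −0.02 over all genes. This direction depended on the scaling: with each array scaled to its 75th percentile the median over all genes shifted to −0.11, 389 genes were called higher in MEC and 4061 lower, and among the members 1 was called higher and 17 lower. Of the 15 members higher in MEC after quantile normalisation, 9 were above 0 and 6 under 0 with that scaling. Relative to the shifted median of all genes, 24 of the 45 members were above it, against 31 after quantile normalisation, and the members' median stood 0.02 above it, against 0.11; of the 17 called members, 3 were called in the same direction. MEC and LEC arrays were scanned on different days, 1 for each region, so region and scan day cannot be told apart.

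**Figure D4:**
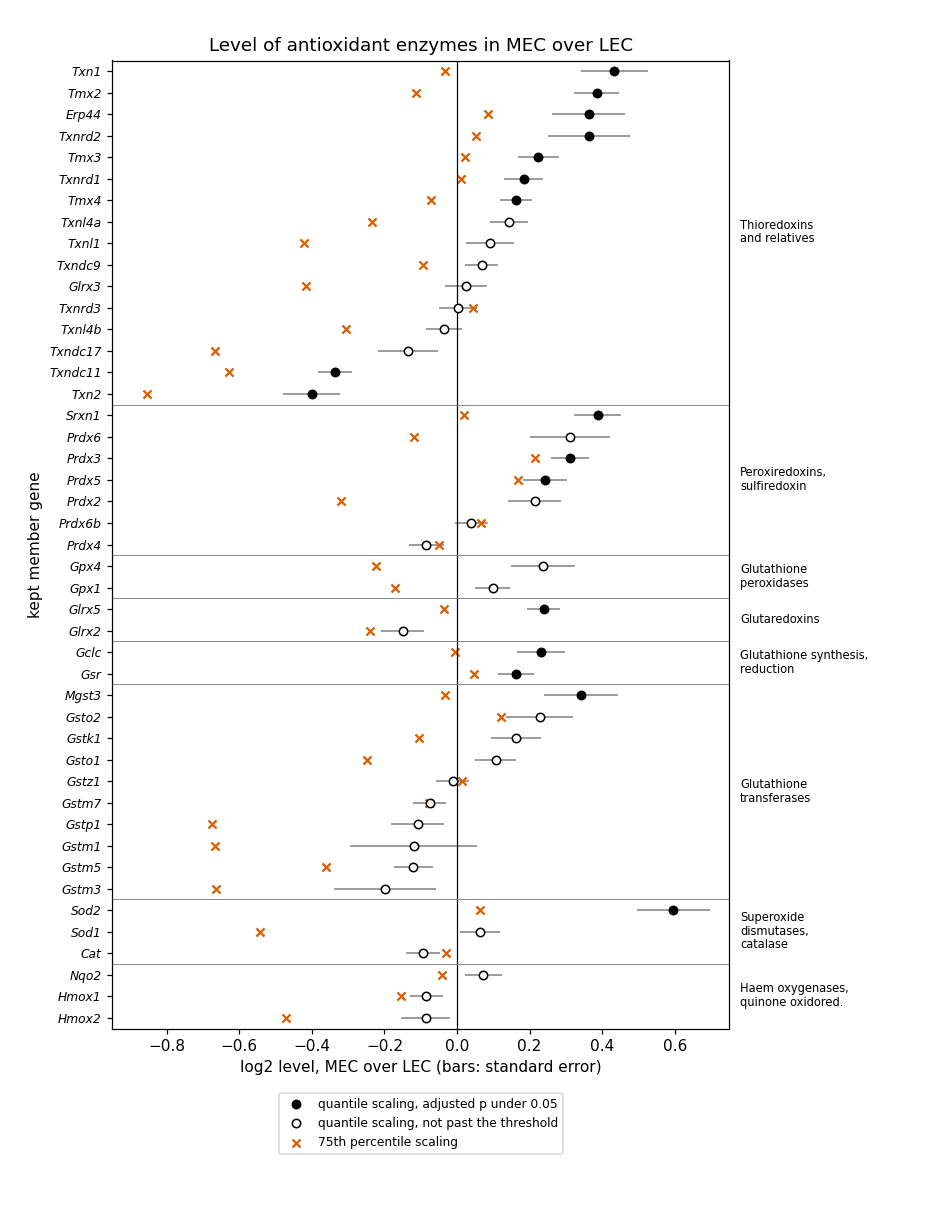
Log2 level in MEC over LEC for each tested member, by family, after quantile normalisation (circles with standard errors, filled where the adjusted p is under 0.05) and after scaling to the 75th percentile of each array (crosses). Sod2 is highest at 0.60 and Txn2 lowest at −0.40 among the circles, and most crosses lie to the left of their circles, that of Prdx3 at 0.21.

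After quantile normalisation Sod2 had the highest level in MEC over LEC among the members. Prdx3 was higher than Sod2 with 75th percentile scaling (0.21 against 0.06) and with the Agilent software's processed intensity (0.70 against 0.65). The log2 intensity of Sod2 was 10.62, 10.23 and 10.25 in the MEC pairs, against 9.80, 9.74 and 9.78 in the LEC pairs, so the regions did not overlap. The difference was 0.60 (SE 0.10, adjusted p = 0.0051 in limma; 1.51-fold), and it was 0.06, not called, with 75th percentile scaling. Of the members, Sod2 alone passed the threshold without replicate 2 of both regions. The other dismutase, Sod1, differed by 0.06 (SE 0.06) after quantile normalisation, without a call. With 75th percentile scaling Sod1 was called lower in MEC, at −0.54 (adjusted p = 0.00173 in limma).

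Of the 7 tested genes of the peroxiredoxin system, 3 were called higher in MEC after quantile normalisation, against the 11.6% of all genes. With 75th percentile scaling 1 was called higher (Prdx3) and 1 lower (Prdx2), against 389 and 4061 of all 10898 genes. Srxn1 had log2 intensities of 7.61, 7.67 and 7.68 in MEC, against 7.16, 7.25 and 7.38 in LEC, a difference of 0.39 (SE 0.06, adjusted p = 0.00475 in limma) without overlap; with 75th percentile scaling it was 0.02. Prdx3 had 6.51 in each MEC pair, against 6.26, 6.11 and 6.23 in LEC, a difference of 0.31 (adjusted p = 0.00525 in limma). It was the one member called higher in MEC under both scalings, at 0.21 with an adjusted p of 0.0306 under the other. Prdx5, an atypical peroxiredoxin of mitochondria and peroxisomes, was higher by 0.24, and by 0.17 without a call under the other scaling. Prdx2 differed by 0.21 and Prdx6 by 0.31, neither past the threshold. With the other scaling Prdx2 was called lower (−0.32, adjusted p = 0.0061 in limma) and Prdx6 stood at −0.12 without a call. Prdx4, of the endoplasmic reticulum, differed by −0.08 after quantile normalisation and by −0.05 with the other scaling, neither called.

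After quantile normalisation the thioredoxins went opposite ways. Txn1 had 8.73, 8.62 and 8.85 in MEC, against 8.49, 8.20 and 8.20 in LEC, a difference of 0.43 (SE 0.09, adjusted p = 0.0119 in limma), which was −0.03 with 75th percentile scaling. Txn2 had 8.16, 8.28 and 8.31 in MEC, against 8.80, 8.64 and 8.52 in LEC, a difference of −0.40 (SE 0.08, adjusted p = 0.00883 in limma), and −0.86 with the other scaling. Its second probe differed by −0.15. The reductases Txnrd1 and Txnrd2 were higher in MEC by 0.18 and 0.36 and stayed above 0, at 0.01 and 0.05, with the other scaling.

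Among the thioredoxin-fold proteins, Txndc11, a protein of the endoplasmic reticulum, had the smallest p of all members. Its intensities were 6.88, 6.86 and 6.94 in MEC, against 7.21, 7.26 and 7.20 in LEC, a difference of −0.34 (SE 0.05, adjusted p = 0.00275 in limma), and −0.63 with 75th percentile scaling. The regions did not overlap. Tmx2 had 8.93, 9.02 and 8.89 in MEC, against 8.48, 8.55 and 8.66 in LEC, a difference of 0.38 (adjusted p = 0.00426 in limma) that turned to −0.11 with the other scaling. Erp44, a chaperone of the early secretory pathway, Tmx3 and Tmx4 were higher in MEC by 0.36, 0.22 and 0.16, and stood at 0.08, 0.02 and −0.07 with the other scaling; second probes of Erp44 and Tmx4 read −0.03 and −0.06.

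In the glutathione branch, Gclc was higher in MEC by 0.23 (intensities of 6.81, 7.02 and 6.997, against 6.76, 6.66 and 6.71 in LEC) and Gsr by 0.16, where a second probe of Gsr differed by 0.00. Glrx5 had 7.08, 7.08 and 7.09 in MEC, against 6.79, 6.88 and 6.85 in LEC, a difference of 0.24 (adjusted p = 0.00782 in limma). With 75th percentile scaling these 3 genes stood at −0.01, 0.05 and −0.04, none called. Gpx4 and Gpx1 differed by 0.24 and 0.10, did not pass the threshold, and turned to −0.22 and −0.17 with that scaling. Of the 10 transferases only Mgst3 was called after quantile normalisation, against 25.7% of all genes. It stood at 0.34 with a second probe at 0.16, and it turned to −0.03 with 75th percentile scaling. After quantile normalisation 6 of the 10 were under 0, against 5941 of all 10898 genes. With 75th percentile scaling 5 of the 10 transferases were called lower in MEC, where 4061 of all 10898 genes were. They were Gstm1 (−0.67), Gstm3 (−0.67), Gstm5 (−0.36), Gsto1 (−0.25) and Gstp1 (−0.68).

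In mutants and controls taken apart, the regional difference had the same sign in both genotypes for 41 of the 45 members and for all 17 called ones (with replicate 2 turned, 32 of 45 and all called ones but Tmx4). Both genotypes were read on the same arrays, and the 17 were called on the mean of the 2. Their agreement was therefore largely set beforehand and is no separate support. The share over all genes was not computed. Some sizes differed: Mgst3 stood at 0.48 in mutants and 0.20 in controls (turned, 0.03 and 0.65), Gclc at 0.12 in mutants and 0.34 in controls (turned, 0.29 and 0.17), and Glrx3, not called, at 0.12 in mutants and −0.07 in controls. The thioredoxins were closer, with Txn1 at 0.47 in mutants and 0.40 in controls and Txn2 at −0.39 in mutants and −0.41 in controls. Fewer members passed the threshold there. In mutants 2 did (Sod2 and Txndc11), or 4.44%, against 3.75% of all genes. In controls 3 did (these and Srxn1), or 6.67%, against 4.85% of all genes. Leaving out any 1 of the 6 pairs after quantile normalisation, 8 of the 17 called members stayed past the threshold each time: Glrx5, Prdx3, Sod2, Srxn1, Tmx2, Txn1, Txn2 and Txndc11. The matching share of all genes was not computed. The other 9 of the 17 members were lost without at least 4 of the 6 pairs taken in turn, and Tmx4 and Txnrd1 without any of them.

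Sulfiredoxin and cytosolic thioredoxin reductase, both known Nrf2 targets, are shown with their windows as above; capitals mark the antioxidant response element core, TGACNNNGC on either strand, here on the strand opposite to the gene. The Txnrd1 window is 1 of 3 for that gene.
Srxn1 promoter, chr2:152105274-152105573, plus strand: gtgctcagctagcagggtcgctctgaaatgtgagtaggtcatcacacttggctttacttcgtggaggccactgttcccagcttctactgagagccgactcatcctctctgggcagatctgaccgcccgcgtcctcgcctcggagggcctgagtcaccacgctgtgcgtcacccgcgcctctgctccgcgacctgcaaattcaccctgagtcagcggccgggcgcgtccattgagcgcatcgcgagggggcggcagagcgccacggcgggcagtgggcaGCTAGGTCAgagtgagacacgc
Txnrd1 promoter, chr10:82858956-82859255, plus strand: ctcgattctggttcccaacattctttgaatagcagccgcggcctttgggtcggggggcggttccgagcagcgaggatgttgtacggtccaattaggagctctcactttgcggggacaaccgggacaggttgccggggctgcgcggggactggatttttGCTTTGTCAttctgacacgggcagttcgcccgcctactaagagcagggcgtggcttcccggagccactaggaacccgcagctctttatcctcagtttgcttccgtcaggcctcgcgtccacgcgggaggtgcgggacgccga
The core stood in a window of 14 of 64 members (21.9%) and 7 of 37 tested members (18.9%), against 14% of 27025 genes. Here too the 27025 genes were not limited to tested ones, and the share over those was not computed. The 7 tested members were Srxn1, Txnrd1, Txndc11, Tmx4, Sod1, Gstm5 and Gstm7. They did not share a direction between the regions: 3 were called higher in MEC after quantile normalisation (Srxn1, Txnrd1 and Tmx4), Txndc11 was called lower, and Sod1, Gstm5 and Gstm7 were not called. With 75th percentile scaling Txndc11, Sod1 and Gstm5 were called lower and the other 4 were not called, Tmx4 being under 0. Of all genes, 11.6% were called higher and 14.1% lower after quantile normalisation. With the other scaling 4061 of all 10898 genes were called lower. None of the 7 was called for the genotype.

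Of the rest of the pathway, 0 genes were called for genotype in the average over both regions in any of 6 lists. Region counts here are after quantile normalisation, and their direction under the other scaling was not computed. These counts stand beside 11.6% of all genes called higher and 14.1% called lower, and the lists are short. Of 7 tested regulators of antioxidant genes, 3 were called higher and 1 lower in MEC; the lower one was Sqstm1, the autophagy receptor that binds Keap1, at −0.62 (SE 0.06, adjusted p = 0.000972 in limma). Of 16 tested genes of metal binding, repair and other defence, 3 were called higher and 2 lower, with Oxr1, an oxidation resistance gene, at 0.50 and Sesn3, a sestrin, at −0.71. Of 12 tested genes of selenoprotein synthesis and other selenoproteins, 5 were called higher and 1 lower. The counts were 2 and 1 of 10 for glutathione synthesis, turnover and transport, 1 and 1 of 11 for NADPH supply and 0 and 1 of 7 for oxidant producing enzymes. For genotype, the genes of smallest p in the average were Sesn3 at 0.16 (SE 0.07), Msrb2, a mitochondrial methionine sulfoxide reductase, at −0.10, and Apoe, the lipid carrier made by glia, at 0.21, where LEC 2 read 0.85. Turned, these averages were −0.02, −0.06 and −0.12.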

How the data were processed

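The deposited scanner files hold, per the file headers, mean signal and median local background per spot and dye as raw intensity, processed intensity after the authors' Agilent Feature Extraction had subtracted background and balanced the dyes, a log10 ratio of Cy5 over Cy3 made by the authors' software, and flags of 0 or 1. The authors' deposited value table holds log2 ratios, with centring and direction not stated. The software was 9.5.1.1 per the file headers and 8.5.1.1 per the submitters' processing notes; probe coordinates are those of mm8 per the file headers.

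Each column of the value table was matched to the arrays over 9166 bright spots. The matched array correlated at 0.995 to 0.999 in size, any other at 0.657 at most. Assigned so, the LEC arrays were scanned in the order of the samples. The direction of replicate 2 is not settled.

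Background was handled by normexp (offset 50) and dye bias by within-array loess, under R 4.3.3 with limma 3.58.1 and, to read the files, the data.table package (1.17.8). Spots of the same probe were averaged first, then both arrays of each pair. The filter asked for a well-above-background flag in 4 or more of the 6 readings that a region and genotype has, which left 12987 probes, and a gene was represented by its kept probe of highest mean intensity. Levels are log2 intensities averaged over both dyes after quantile normalisation. The fit used the 6 pair means, with a mean per region; p-values are two-sided and adjusted by Benjamini-Hochberg over 10898 genes, threshold 0.05, and measure the spread between these samples. Same-numbered deviations of MEC and LEC pairs correlated at −0.18, −0.00 and −0.36 for ratios, and differently numbered ones at −0.38 to 0.44. With 3 replicates per region and replicate 2 unsettled, this cannot tell whether MEC and LEC pairs came from the same mice. The fit took the 6 pairs as separate. The fit was tested on simulated data.

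Names were brought up to date with RefSeq (GRCm38.p6, names and promoter windows alone): 110 of the 125 member probes were found through their accession, 12 through the symbol and 3 through a former symbol, and 12 array names changed. Members, lists and tests were chosen with earlier results of these data known. Values by pair are given for the 6 members of smallest p in each comparison, the brightest of each family and up to 8 called members; others shown by pair were chosen after their values were seen. Of the pathway lists, the 3 genes of smallest p in the average and in the level comparison are named.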

Additional observations from a re-analysis of the deposited data

Results flagged for a closer look

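In 4 of the 45 members, 1 littermate pair lay far from the other 5 by Dixon's criterion. Chance alone meets it in about 1 group of 20, if all values of a group share 1 normal distribution. The pairs here come from both regions, so that rate may not hold for them. The share over all tested genes was not computed, so whether 4 of 45 is an excess was not tested. Erp44 had a log2 ratio, mutant over control, of 0.26 in LEC 2, against −0.20 to −0.03 in the other pairs. A second kept probe of Erp44 had the opposite sign in LEC 2: with replicate 2 turned it read 0.11, where the probe used read −0.26. Gpx4 had −0.56 in MEC 3, against −0.11 to 0.03. Sod2 had −0.26 in LEC 3, against −0.04 to 0.05. Txn1 had −0.35 in LEC 3, against −0.19 to −0.13. The flags of Erp44 and Txn1 rest on the unsettled direction of replicate 2: with it turned as labelled, Erp44 has −0.26 in LEC 2, neither gene's extreme pair meets the criterion, Gpx4 and Sod2 still meet it, and Gstm7 and Txndc9 meet it instead.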

How the results depend on the processing

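Turning replicate 2 as labelled reversed Prdx3 in MEC (0.11), the averages of Prdx3 (0.076), Tmx3 (0.0090), Txndc17 (0.024), Hmox2 (0.015) and Glrx5 (−0.0010), and the MEC minus LEC differences of Gclc (0.11), Gsto2 (0.015) and Txndc17 (−0.30). With files and dyes as labelled, the reversed values were Prdx3 in MEC (0.11), Gsto2 in LEC (−0.036), the averages of Tmx3 (0.029), Gstp1 (0.075), Hmox2 (0.10) and Glrx5 (−0.0077), and the differences of Gclc (0.11) and Gsto2 (0.12). Without replicate 2 of both regions, Txndc17 turned in the average (0.00081) and the difference (−0.082), and the regional calls fell to 1 member and 728 genes. Without loess, Txn1 (0.031), Txn2 (0.016) and Txnl1 (0.057) turned in MEC, as did the averages of Sod1 (0.068), Gstp1 (0.14), Prdx2 (0.084), Txndc17 (0.12) and Hmox2 (0.056). The average of Gstp1 also turned in the authors' value table (0.0083) and with the mean of all kept probes (0.0037). With 75th percentile scaling 4450 genes were called between regions, and Tmx2 (−0.11), Glrx5 (−0.036), Txn1 (−0.034), Sod1 (−0.54), Prdx2 (−0.32), Gpx4 (−0.22) and Gclc (−0.0068) turned. In mutants alone 2 members and 409 genes were called between regions, and in controls alone 3 and 529, with fewer readings. Leaving out 1 pair at a time gave 9 to 14 members and 1721 to 2594 genes between regions, and 0 to 1 genes for genotype in MEC and in the average, the 1 without LEC 2. The averages then ran from −0.28 to 0.024 for Sod1, −0.14 to 0.016 for Gstp1, −0.18 to 0.074 for Prdx2, −0.081 to 0.058 for Txndc17, −0.16 to 0.018 for Hmox2 and −0.022 to 0.12 for Gclc. The cause of these changes was not tested.

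Replicate numbers did not pair MEC with LEC; with the replicate number as a block, 15 members and 2422 genes were called between regions and 0 for genotype. Slide or scan day as a block was not run, since each slide held 1 array and each region had its own scan day. Dim signal limits Cy5, and 31 members were not tested.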
